A study of Drosophila melanogaster with 6 samples.

Results

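The proteasome is the large protease that degrades proteins tagged with ubiquitin, and every cell depends on it. Its barrel, the 20S core, is made of outer alpha rings, whose tails form the gate, and inner beta rings, in which 3 kinds of beta subunit carry the cutting sites. The 19S regulatory particle caps the barrel: its base holds a ring of ATPases that unfold and thread the substrate and subunits that receive ubiquitin, and its lid carries the deubiquitinase that removes the tag. The subunits are built into 1 complex, and in yeast and mammals their genes are often regulated together.

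The genes described here are the 41 of 14239 genes in the table whose symbol starts with Prosalpha, Prosbeta, Pros, Rpn or Rpt (the last 3 followed by a digit). They comprise 28 subunit genes and 13 duplicated copies (paralogs) of such genes. Of the 41, 11 stand in the table under an older symbol and are given with the current RefSeq name at first mention.

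The values are mRNA-seq levels of GFP-labelled cells sorted by FACS from wing imaginal discs, the larval tissue that forms the fly wing. The ablated group (3 replicates, genotype nub-GFP/+; rn-Gal4, GAL80ts, UAS-rpr/+) carried the cell death gene reaper (rpr) under rn-Gal4, which acts in most of the wing pouch. The control group (3 replicates, nub-GFP/+; rn-Gal4, GAL80ts/+) had the same driver, repressor and temperature shift but no UAS-rpr. Larvae of both groups were kept at 18 °C, shifted to 30 °C for 24 h, and dissected after 24 h of recovery, when the ablated discs hold a regeneration blastema. Each replicate pooled discs from several animals, with more discs per ablated replicate, and the cells were selected through the nub locus, which is active in the pouch and in the blastema.

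The authors' table holds 1 FPKM value per gene and group (fragments scaled by transcript length and library size), combined over the 3 replicates. Values of single replicates were not analysed here. No error and no test is therefore given, and each difference is one between 2 group values. The log2 ratio is that of ablated over control FPKM, with no pseudocount, for the 8402 genes that had a mean of 1 FPKM or more and a value above 0 in both groups. Of the 41 proteasome genes, 29 were among them: 27 subunit genes, called the abundant subunits below, and the paralogs Rpt3R and Rpt6R.

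All 27 abundant subunits were lower in ablated than in control cells, by a similar ratio. Their log2 ratios lay between −0.72 and −0.35, with a median of −0.50 and an SD over genes of 0.086. Over all 8402 genes the median was −0.04, the quartiles were −0.33 and 0.32, and 53% were lower in ablated cells. Of the 645 other genes whose mean FPKM lay within the range of the abundant subunits, 84.5% were lower, with a median of −0.36. Summed over the 41 genes, the level was 5557 FPKM in ablated and 7967 FPKM in control cells, 30.3% lower in ablated cells. Fewer cells of a type that expresses these genes highly and less of their RNA per cell cannot be told apart in such bulk values.

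**Figure D1:**
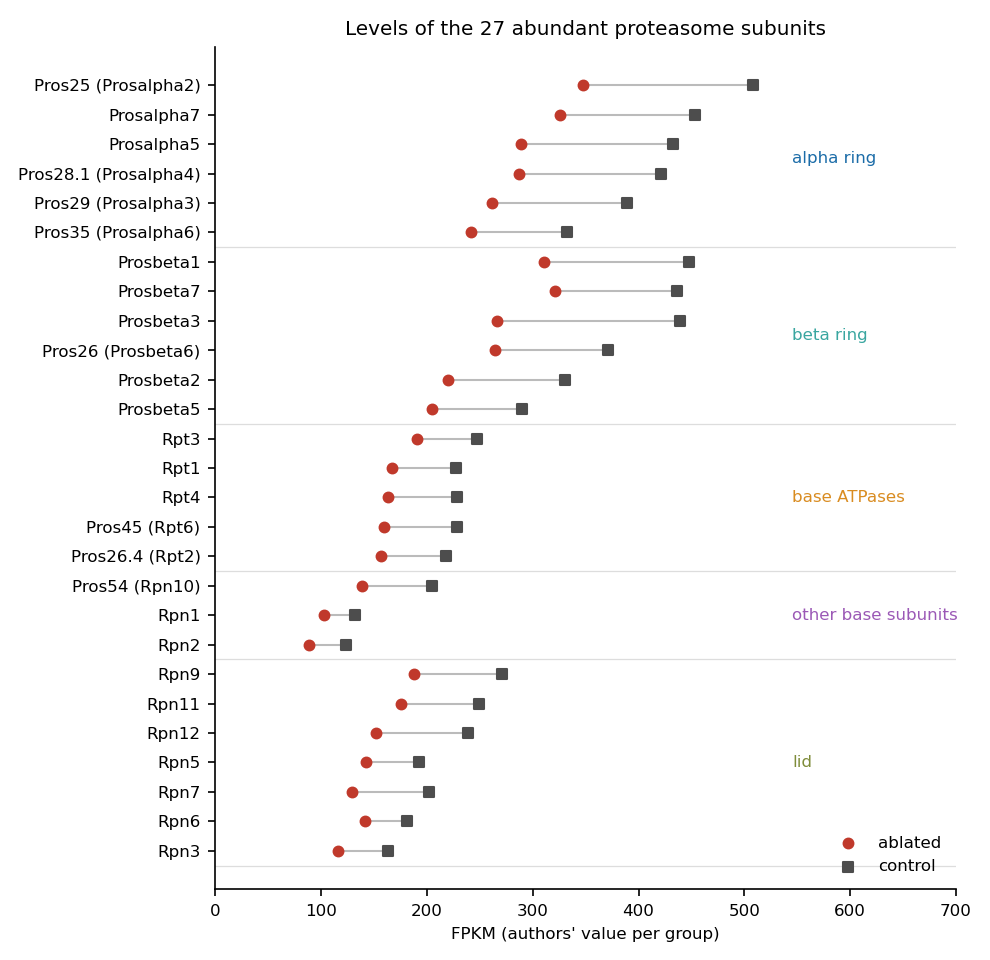
FPKM (linear axis from 0, the authors' value per group) of the 27 abundant proteasome subunits, in ablated cells (red circles) and control cells (grey squares), grouped by subcomplex, with a line joining the 2 values of a gene. Every red circle lies left of its square, and all 12 subunits of the alpha and beta rings lie above all 15 of the base and lid in each group.

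Among the alpha subunits, Pros25 (Prosalpha2) had the highest level of all 41 genes, with 348 FPKM in ablated and 508 FPKM in control cells, a log2 ratio of −0.55. Prosalpha7 followed with 326 FPKM in ablated and 454 FPKM in control cells (−0.48), so the most abundant alpha transcripts were not those with the lowest log2 ratio. The lowest log2 ratio in this ring was that of Prosalpha5, with 289 FPKM in ablated and 433 FPKM in control cells (−0.58). The other alpha subunits past the filter were Pros29 (Prosalpha3), whose counterpart in yeast has the main part in closing the gate, Pros28.1 (Prosalpha4) and Pros35 (Prosalpha6), with log2 ratios of −0.57, −0.56 and −0.46. The 6 had a median log2 ratio of −0.55, with 242 to 348 FPKM in ablated and 333 to 508 FPKM in control cells.

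The alpha subunit that is missing from these values is Prosalpha1, listed at 0 FPKM in ablated and 0.042 FPKM in control cells. The ring needs this subunit, and genes that every cell uses, Ef1alpha48D (a translation elongation factor) and RpL15 (a ribosomal protein), are also listed at 0 in both groups of this table. An FPKM at or near 0 in it therefore need not mean an absent transcript. Prosalpha1 is placed on chromosome 2R from 3712997 to 3716181 (release 5 of the genome, as are all coordinates here), a locus that the table gives also to phr, with 36.0 FPKM in ablated and 17.8 FPKM in control cells. The next locus holds CG30382 (Prosalpha1R), a copy of Prosalpha1, listed at 0 in both groups. No ratio of Prosalpha1 was used.

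The 3 catalytic beta subunits were lower in ablated cells, like the other abundant subunits and most genes of their level. Prosbeta1, with the caspase-like site, had 310 FPKM in ablated and 447 FPKM in control cells, a log2 ratio of −0.53. Prosbeta2, with the trypsin-like site, had 220 FPKM in ablated and 330 FPKM in control cells (−0.59), and Prosbeta5, with the chymotrypsin-like site, had 205 FPKM in ablated and 290 FPKM in control cells (−0.50). Prosbeta5 had the lowest level of the core in each group, and the 3 sites differed in log2 ratio by less than the alpha and beta rings spanned.

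The structural beta subunits held both ends of the range of the core. Prosbeta3 (chromosome 3R, 4829740 to 4831948) had 266 FPKM in ablated and 439 FPKM in control cells, a log2 ratio of −0.72, the lowest of the 27. It shares this locus with CG11980, which had 39.2 FPKM in ablated and 67.8 FPKM in control cells (−0.79). Prosbeta7 had 321 FPKM in ablated and 436 FPKM in control cells (−0.44), the highest log2 ratio in the core. Pros26 (Prosbeta6) lay between Prosbeta3 and Prosbeta7 at −0.49. The median log2 ratio of the 6 beta subunits was −0.51.

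The ATPases of the base were close to each other in level and in ratio. Rpt1, Pros26.4 (Rpt2), Rpt3, Rpt4 and Pros45 (Rpt6) had 157 to 190 FPKM in ablated and 218 to 247 FPKM in control cells, and a median log2 ratio of −0.48. Rpt3 had the smallest difference, with 190 FPKM in ablated and 247 FPKM in control cells (−0.38). Pros45 had the largest, with 159 FPKM in ablated and 228 FPKM in control cells (−0.52). Rpt1 and Rpt4 stood at −0.45 and −0.48.

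Among the other base subunits, Rpn2, the large scaffold to which the ubiquitin receptor Rpn13 docks, had the lowest level of the 27, with 89.1 FPKM in ablated and 124 FPKM in control cells (−0.47). Rpn1, the scaffold that binds the shuttle proteins, had 103 FPKM in ablated and 133 FPKM in control cells (−0.36). The ubiquitin receptor Pros54 (Rpn10) had 139 FPKM in ablated and 205 FPKM in control cells (−0.56), and these 3 base subunits differed among themselves by more than the 5 ATPases did.

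The lid spanned nearly the whole range. Rpn12 had 151 FPKM in ablated and 239 FPKM in control cells (−0.66), and Rpn7 had 130 FPKM in ablated and 202 FPKM in control cells (−0.64). Both are structural lid subunits, and they had the lowest log2 ratios after Prosbeta3. At the other end, Rpn6, which in yeast clamps the lid to the core, had the highest log2 ratio of the 27. Its level was 142 FPKM in ablated and 181 FPKM in control cells (−0.35). Its locus also holds AttB, an antibacterial peptide gene, and ave, with 18.1 FPKM in ablated and 32.1 FPKM in control cells. Rpn5 had 142 FPKM in ablated and 192 FPKM in control cells (−0.43). The deubiquitinase Rpn11 had 176 FPKM in ablated and 249 FPKM in control cells (−0.50), the median of the 7 lid subunits, with the structural subunits Rpn3 and Rpn9 at −0.49 and −0.53.

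The differences of the abundant subunits were small in fold, so the count past a threshold rested on where the threshold lay. Of the 29 genes past the filter, 5 were at least 1.5-fold lower in ablated cells (Rpt6R, Prosbeta3, Rpn12, Rpn7 and Prosbeta2), against 9.32% of all 8402 genes. Rpt6R was among them only because its control value took it past the filter. Of the others, Prosbeta3, Rpn7 and Prosbeta2 share their loci with other genes, so their values are uncertain. None of the 29 was at least 1.5-fold higher, against 14.8% of all genes and 3.10% of the 645 other genes whose mean FPKM lay within the range of the abundant subunits. Prosbeta2 at −0.59 lay just inside that limit and Prosalpha5 at −0.58 just outside it. At 80% of the control level or less were 28 of the 29, all abundant subunits included, against 25.4% of all genes. Lower by any amount were the same 28, all but Rpt3R, against 53% of all genes. At the log2 threshold of 1.3 that the study used for its gene lists, none of the abundant subunits passed in the lower direction, against 1.95% of all genes. Rpt6R passed it, through the same filter, and no longer did with 1 FPKM added to both groups. The study also called genes without a limit on the ratio, and those calls were not used here.

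Genes of similar level were also lower in ablated cells, so the members were set beside them. The median log2 ratio of the genes outside the set was 0.39 at a mean of 1 to 5 FPKM, 0.05 at 5 to 20 FPKM, −0.17 at 20 to 100 FPKM, −0.36 at 100 to 500 FPKM and −0.30 from 500 FPKM up. The 645 other genes between the mean levels of Rpn2 and Pros25 (106 to 428 FPKM) had a median of −0.36 and quartiles of −0.54 and −0.13. Of these 645 genes, 84.5% were lower in ablated cells by any amount, 54.3% were at 80% of the control level or less, and 21.2% were at least 1.5-fold lower. The count of abundant subunits at least 1.5-fold lower, 4 of 27, was thus no larger a share than among genes of their level. The range of the 27, −0.72 to −0.35, also held 38.9% of the 645 genes.

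**Figure D2:**
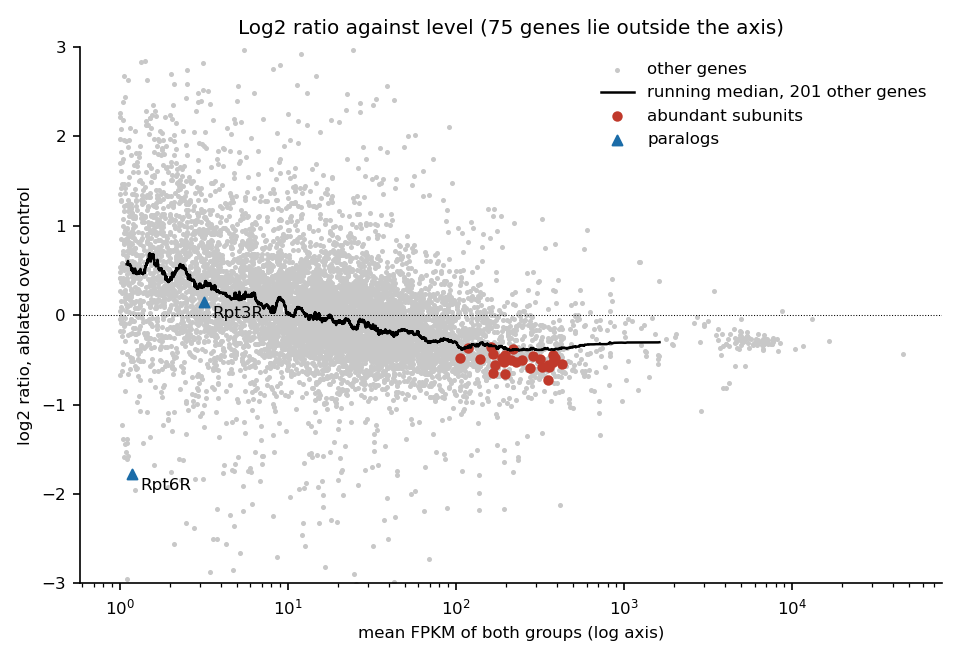
Log2 ratio of ablated over control FPKM (y axis) against mean FPKM of both groups (x axis, log scale) for 8373 other genes (grey points), the 27 abundant subunits (red circles) and the paralogs Rpt3R and Rpt6R (blue triangles), with the running median of the other genes (black line) and 75 genes outside the axis. The line lies above 0 at low levels and below 0 from about 20 FPKM up, and the red circles lie in a narrow band near or below it.

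The non-member genes include 6 proteasome subunits under other symbols, described below. For each member the 200 non-member genes nearest in mean FPKM gave a median of their own. Of the 27 abundant subunits, 26 lay below this median, 4 of them also below the lower quartile, and none above the upper quartile. The difference from the median of the nearest genes was −0.13 on the log2 scale at the median of the 27 and ran from −0.34 (Prosbeta3) to 0.01 (Rpt3). The 4 below the lower quartile were Prosbeta3, Rpn12, Rpn7 and Pros54, of which Prosbeta3 and Rpn7 share their loci with other genes. Rpn1 lay at the median of its nearest genes, and Rpn6 differed from that of its own by −0.02.

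**Figure D3:**
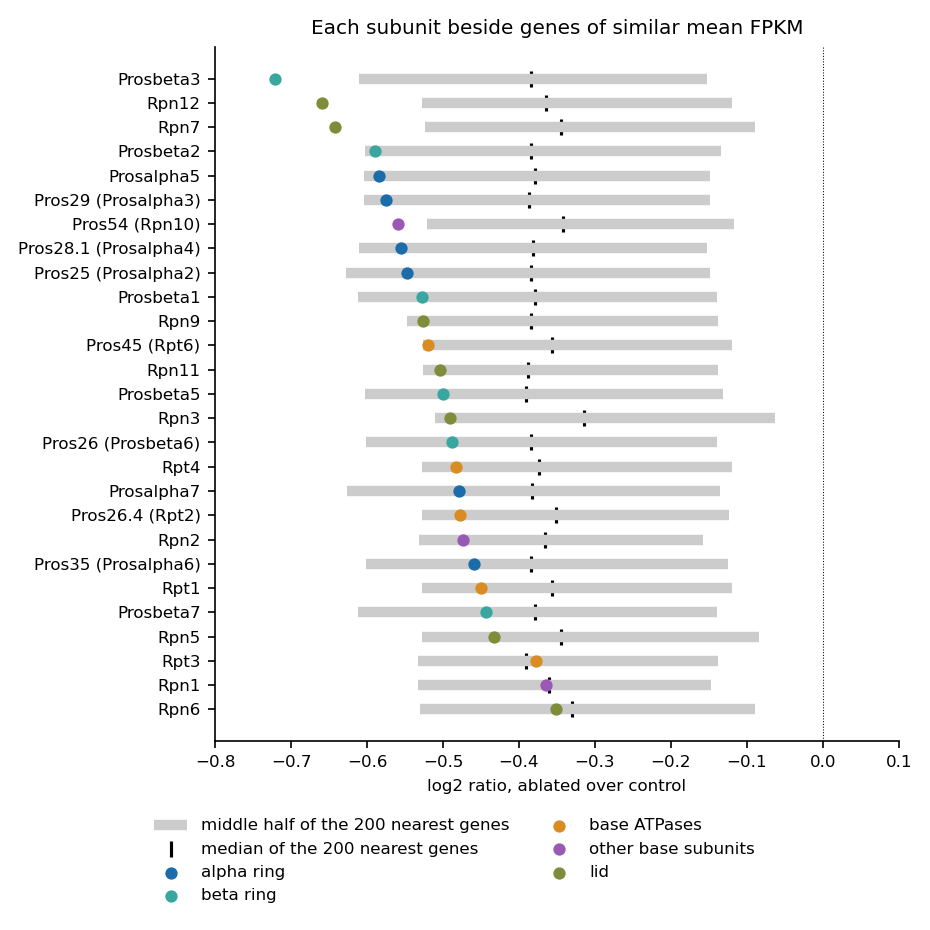
Log2 ratio of ablated over control FPKM (x axis) of each abundant subunit (points coloured by subcomplex, lowest at the top), beside the median (black mark) and the range from the lower to the upper quartile (grey bar) of the 200 other genes nearest in mean FPKM. All points but Rpt3 lie left of their mark, and Prosbeta3, Rpn12, Rpn7 and Pros54 lie left of their bar.

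The order of levels within the complex was nearly the same in both groups. Every core subunit had a higher FPKM than every subunit of the regulatory particle, with 205 to 348 against 89.1 to 190 FPKM in ablated cells and 290 to 508 against 124 to 271 FPKM in control cells. The median of the 12 core subunits was 1.83 times that of the 15 regulatory subunits in ablated cells and 1.96 times in control cells. The highest level of the 27 was 3.90 times the lowest in ablated cells and 4.11 times in control cells. Within the core the coefficient of variation over genes was 15.7% in ablated and 15.6% in control cells, and within the regulatory particle 19.8% in ablated and 20.5% in control cells. Across the 27 genes, Spearman's rho between ablated and control FPKM was 0.98, and that between mean FPKM and log2 ratio was −0.32. These points share their libraries and are no independent replicates, so both are given as descriptions. The median log2 ratio was −0.54 for the core and −0.48 for the regulatory particle, 2 sets whose ranges (−0.72 to −0.44 and −0.66 to −0.35) overlapped over most of their length.

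Position on the chromosomes did not separate the subunits. The 27 were spread over all major arms, with 3 on 2L, 7 on 2R, 5 on 3L, 8 on 3R and 4 on X, and the median log2 ratio by arm was −0.49, −0.50, −0.56, −0.50 and −0.50 in that order. The table gives the same locus to 11 of them and at least 1 other gene, and the values of such overlapping genes are uncertain, since it is not stated whether the strand was used in counting. Their median log2 ratio was −0.53, against −0.49 for the 16 that stand alone.

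The 13 paralogs were listed far below the abundant subunits or at 0. Since genes that every cell uses are also at 0 in this table, an exact 0 is given only as listed. In the fly, several of these copies are known from the testis, where they are made in the male germline. Prosbeta4R1, Prosbeta4R2, Prosbeta5R (Prosbeta5R1) and Rpn12R were listed at 0 FPKM in both groups, and Prosbeta4R2 and Rpn12R share their loci with other genes. Their parent genes Prosbeta5, Rpn12 and CG17331 (Prosbeta4) are described with their own groups. Pros28.1A (Prosalpha4T1) had 0.075 FPKM in ablated and 0.063 FPKM in control cells, beside 287 FPKM in ablated and 421 FPKM in control cells for Pros28.1. Pros28.1B (Prosalpha4T2) was listed at 0.020 FPKM in ablated cells and at 0 in control cells. No ratio is given for values so near 0. Prosalpha6T had 0.12 FPKM in ablated and 0 FPKM in control cells, beside 242 FPKM in ablated and 333 FPKM in control cells for Pros35. Prosalpha3T was listed at 0 FPKM in ablated and 0.080 FPKM in control cells, beside 261 FPKM in ablated and 389 FPKM in control cells for Pros29. Prosbeta2R1 was at 0 FPKM in ablated and 0.021 FPKM in control cells, and Prosbeta2R2 at 0.43 FPKM in ablated and 0.29 FPKM in control cells, beside 220 FPKM in ablated and 330 FPKM in control cells for Prosbeta2. Rpt4R was listed at 0 FPKM in ablated and 0.015 FPKM in control cells, beside 164 FPKM in ablated and 229 FPKM in control cells for Rpt4. In all, 11 of the 13 were listed under 0.5 FPKM in both groups, the 4 at 0 included.

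Only Rpt3R and Rpt6R were above that. Rpt3R, a copy of the ATPase gene Rpt3, had 3.33 FPKM in ablated and 3.00 FPKM in control cells, a log2 ratio of 0.15, which differed by −0.17 from the median of its 200 nearest genes. Rpt6R, a copy of Pros45, had 0.53 FPKM in ablated and 1.82 FPKM in control cells, a log2 ratio of −1.77. This gene (chromosome 3R, 26407920 to 26409419) stands alone at its locus and passed the filter only through its control value. Its ratio is sensitive to a small constant, and was −1.60 with 0.1 FPKM and −0.88 with 1 FPKM added to both groups. Close copies can share reads, which the authors' correction for reads of several origins divides between them. The 3 further copies that stand under other symbols, CG30382, CG31742 (Prosbeta5R2) and CG6789 (Rpn13R), summed to 0.117 FPKM in ablated and 0.0193 FPKM in control cells.

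Proteasome subunits that the table lists under other symbols had ratios like those of the 27. All 6 were lower in ablated cells, also with both groups set to the same FPKM total. Of the 645 genes of that level, which include these 6, 84.5% were lower, and 58.1% with equal totals. The 6 had a median log2 ratio of −0.56 and a range of −0.63 to −0.51. CG17331 (Prosbeta4) had 274 FPKM in ablated and 424 FPKM in control cells (−0.63), and Tbp-1 (the ATPase Rpt5) had 129 FPKM in ablated and 183 FPKM in control cells (−0.51). The level of CG17331 lay within the range of the core in each group, and that of Tbp-1 within the range of the regulatory particle. CG13779 (Sem1), a small protein of the lid, was the exception to the order of levels, with 339 FPKM in ablated and 500 FPKM in control cells (−0.56). CG13779 and Tbp-1 each share their locus with another gene, so their values are uncertain. The receptor CG13349 (Rpn13), the lid subunit Mov34 (Rpn8) and the proteasome-bound deubiquitinase Uch-L3 (Uch-L5) were at −0.56, −0.56 and −0.52.

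Genes that build, activate or bind the proteasome were more varied, with a median log2 ratio of −0.33 for 5 genes. Pomp, the chaperone of core assembly, which shares its locus with another gene, had 87.8 FPKM in ablated and 148 FPKM in control cells (−0.75), a lower ratio than that of any abundant subunit. Usp14 (CG5384), a deubiquitinase that binds the regulatory particle, was at −0.44, and the proteasome regulator PI31 (CG8979) at −0.33. REG, an activator that caps the core in place of the regulatory particle, had 220 FPKM in ablated and 239 FPKM in control cells (−0.12), and CG8858 had 13.7 FPKM in ablated and 13.8 FPKM in control cells (0.00). Setting both groups to the same FPKM total adds 0.28 to every log2 ratio. Then 3 of the 5 were lower in ablated cells in place of 5, and REG and CG8858 turned higher. Of all 8402 genes, 53% were lower as deposited and 28.7% with equal totals. For the 645 genes at the level of the subunits, where most of the 5 lie, the shares were 84.5% and 58.1%.

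Of 12 genes of ubiquitin and its activation and delivery, 10 were lower in ablated cells, with a median log2 ratio of −0.32, beside 53% of all genes. The 12 span a wide range of levels. Of the other genes, 67.9% were lower at 20 to 100 FPKM, 84.0% at 100 to 500 FPKM and 90.9% from 500 FPKM up. With equal totals 6 of the 12 were lower, beside 28.7% of the same 8402 genes. The shares in these ranges of level were then 37.0%, 58.7% and 52.9%. Ufd1-like, a cofactor of the segregase TER94, had 44.4 FPKM in ablated and 68.2 FPKM in control cells (−0.62), the lowest of the 12. It shares its locus with another gene. TER94 itself was at −0.47. Higher in ablated cells were the shuttle protein gene Ubqn, by a log2 ratio of only 0.01, and the polyubiquitin gene Ubi-p63E, with 94.0 FPKM in ablated and 62.0 FPKM in control cells (0.60). The other polyubiquitin gene, Ubi-p5E, had 204 FPKM in ablated and 271 FPKM in control cells (−0.41), so these 2 genes for the same protein differed in sign.

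The COP9 signalosome, a relative of the lid that acts on ubiquitin ligases, had 9 genes in the table, 8 of them past the filter. All 8 were lower in ablated cells (6 with equal totals, where alien and CSN3 turned higher), and the median log2 ratio was −0.44. Of the other genes with a mean of 20 to 100 FPKM, the level of most of the 8, 67.9% were lower in ablated cells and 37.0% with equal totals. Over all 8402 genes these shares were 53% and 28.7%. CSN1b had 29.0 FPKM in ablated and 45.7 FPKM in control cells (−0.66), and CSN3 had 34.3 FPKM in ablated and 39.6 FPKM in control cells (−0.21). CSN1a was listed at 0 in both groups. Of 4 transcription factors linked to proteasome genes or protein stress in animals and Keap1, the inhibitor of 1 of them, 2 of the 5 were lower in ablated cells (1 with equal totals), with a median of 0.22. Beside them stand the same 53% and 28.7% of all genes. The heat shock factor Hsf had 88.1 FPKM in ablated and 62.4 FPKM in control cells (0.50), the highest of the 5. The gene cnc, a relative of the mammalian factors that raise proteasome gene transcription, had 18.6 FPKM in ablated and 19.2 FPKM in control cells (−0.05, above 0 with equal totals), its inhibitor Keap1 was at 0.45, its partner maf-S at −0.30 and foxo at 0.22.

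**Figure D4:**
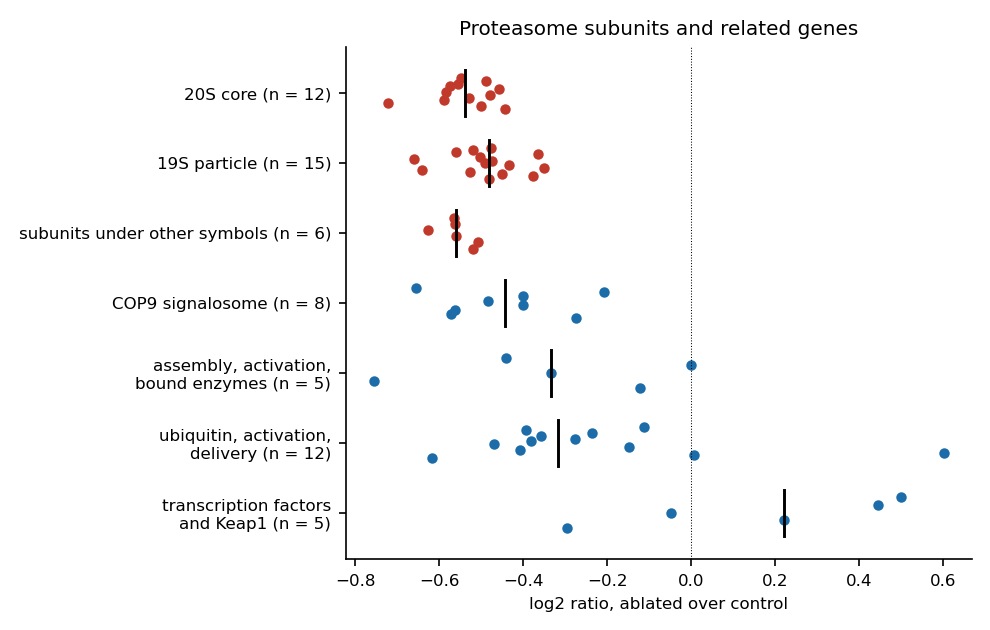
Log2 ratio of ablated over control FPKM (x axis) of the genes of the 20S core, the 19S particle and 5 related lists (1 point per gene past the filter, black bar the median, points spread vertically for legibility). The subunit lists form narrow groups left of 0 with medians of −0.54, −0.48 and −0.56, and the ubiquitin list spans −0.62 to 0.60.

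FPKM totals and markers of other cell types also differed between the groups. The totals over the table were 889990 FPKM in ablated and 1081834 FPKM in control cells, of which the 41 genes took 0.624% in ablated and 0.736% in control cells. With equal totals all 27 abundant subunits were still lower in ablated cells, at −0.44 to −0.07 with the median of all genes at 0.25. So were 28.7% of the 8402 genes and 58.1% of the 645 genes of their level. The 6 markers of the wing pouch, the labelled tissue, were all detected and all lower in ablated cells, with a sum of 172 FPKM in ablated and 285 FPKM in control cells (lowest ratio Dll at −1.18, highest pdm2 at −0.45). At their levels, 45.0% of the other genes at 5 to 20 FPKM and 67.9% at 20 to 100 FPKM were lower. The median difference of the 6 from genes of similar level was −0.57. Myoblast markers summed to 31.3 FPKM in ablated and 5.65 FPKM in control cells, with 3 of 4 past the filter and twi at 4.62 FPKM in ablated and 0.25 FPKM in control cells. The lowest ratio of these 3 was that of Mef2, with 12.7 FPKM in ablated and 4.41 FPKM in control cells (1.53). Tracheal markers summed to 239 FPKM in ablated and 144 FPKM in control cells, mostly Gasp. The gene btl was also higher, with 3.33 FPKM in ablated and 1.07 FPKM in control cells (1.64), while trh had 3.64 FPKM in ablated and 21.8 FPKM in control cells. Notum markers summed to 53.1 FPKM in ablated and 39.4 FPKM in control cells, with tup at 1.55 and ara at −0.19. Hemocyte markers summed to 2.98 FPKM in ablated and 1.19 FPKM in control cells, 1 of 5 past the filter (srp). Germline markers summed to 17.1 FPKM in ablated and 14.8 FPKM in control cells, with bam and mia making up most of it and the other 8 below the filter. Of these, vas had 1.09 FPKM in ablated and 0.83 FPKM in control cells and Mst87F 1.23 FPKM in ablated and 0.36 FPKM in control cells. The genes sa, dj and nos had 0.36, 0.34 and 0.45 FPKM in ablated and 0.063, 0.13 and 0.22 FPKM in control cells. The spermatocyte regulators aly, can and comr were at 0.047 FPKM (aly in ablated cells) or less. All 8 but comr were higher in ablated cells, and comr too with equal totals, but these values lie below the filter. Most genes of low level were higher as well. Of the other genes at a mean of 1 to 5 FPKM, only 24.2% were lower in ablated cells (12.6% with equal totals). The gene rpr had 55.2 FPKM in ablated and 70.3 FPKM in control cells. The part of these cell types and of the scale in the ratios of the proteasome genes was not tested.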

How the data were processed

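RNA of sorted cells of 3 ablated and 3 control replicates was sequenced from stranded libraries. By the methods and the submitters' processing notes, the authors trimmed the reads, mapped them by TopHat2 (0.6) against build 5.41 of the fly genome, and estimated FPKM with Cufflinks (0.0.7), with corrections for bias and for reads of several origins. Cuffdiff scaled the libraries geometrically and gave the deposited table of 1 FPKM per gene and group. Its log2 fold changes, test statistics, p-values and q-values hold the authors' own comparison and were not used. The study gives an approximate number of reads per replicate, but the FPKM carry no counts. The counts behind a gene's value are therefore not known and no interval is given.

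Ratios were computed in Python 3.11.15 (numpy 2.4.6, pandas 2.3.3, scipy 1.17.1, matplotlib 3.10.9). A further 35 genes averaged 1 FPKM or more but were at 0 in 1 group and were left out. The search for the 200 nearest genes was tested on simulated data. Current names of all 41 symbols came from the RefSeq release 6 gene table. Starts, counted from 0 in the file, are given counted from 1.

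The members and gene lists were chosen with earlier results of these data known. By the rule for named genes, all members are accounted for, with values for the catalytic subunits, the 5 lowest and 5 highest ratios, the 3 highest and 3 lowest levels, members with a paralog, and the lowest and highest ratio of each list. Some marker lists are given without their lowest or highest ratio. Other genes were named after their values were seen. Alternatives were pseudocounts of 0.1 and 1 FPKM, no filter or a mean of 5 FPKM or more, equal totals, centring on the median of all genes, other folds, 100 or 400 nearest genes, omission of genes that share a locus, and addition of subunits under other symbols. Omission of the paralogs was added after the data were seen.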

Additional observations from a re-analysis of the deposited data

How the results depend on the processing

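With 1 value per group and no replicate spread, a value was counted as moved when it shifted by more than 0.1 on the log2 scale, and a count when it shifted by more than 1.5 times. No paired analysis was possible because the values used hold 1 FPKM per group, and for the same reason no replicate could be left out. No ratio of the 29 genes changed sign under any alternative. With equal FPKM totals the median over the members became −0.22, that of the alpha ring −0.27, the beta ring −0.23, the base ATPases −0.20, the other base subunits −0.19 and the lid −0.22, and 1 member (Rpt6R) was at least 1.5-fold lower in ablated cells in place of 5. Under it 324 of all genes were at least 1.5-fold lower and 2272 higher, so 12.5% of such genes were lower, against 38.6% (783 lower and 1247 higher) with the values as deposited. That share was 25.4% with no filter (1112 lower and 3267 higher) and 55.6% with a mean of at least 5 FPKM (659 lower and 527 higher), where the members' counts were 5 and 4. With no filter 1 member, Prosbeta2R2, was at least 1.5-fold higher in place of 0. Without genes that share a locus 2 members were at least 1.5-fold lower, of 18 left. With the limit set at 80% of the control level there were 28, at a fold of 2 there was 1, and at the log2 threshold of 1.3 there was 1. Those settings gave 2130, 226 and 164 lower genes and 2103, 606 and 360 higher genes over the whole table. The difference of the members from genes of similar level was −0.14 and ran from −0.16 to −0.13 over its alternatives. The causes of these shifts, beyond what each setting does by construction, were not tested. The counts behind a value are not known, so the precision of low ratios could not be given, and that of Rpt6R became −0.88 with 1 FPKM added to both groups.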
